A study of Mus musculus with 6 samples.

Results

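Sirtuins remove acyl groups from proteins and spend NAD+ on each reaction, so their work depends on the enzymes that rebuild NAD+ from nicotinamide. The group described here holds 10 genes of mouse heart, chosen by name: the 7 sirtuins Sirt1 to Sirt7, and 3 enzymes of NAD synthesis, Nampt, Nmnat1 and Nmnat3. They stand among 18005 genes listed, and all 10 passed the filter on low counts that left 12893 genes for testing. RNA was sequenced from the hearts of 3 old and 3 young mice, all wild type and untreated, for a study titled as one of pathological hypertrophy of the ageing heart. The ages, strain and sex are not given in the labels, and the numbers 1 to 3 in the titles name the mice of each group. That the hearts came from separate animals is taken from those titles.

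NAD+ in muscle comes mainly from salvage. Nampt, the nicotinamide phosphoribosyltransferase, makes nicotinamide mononucleotide and is the slow step, and the adenylyl transfer enzymes Nmnat1 and Nmnat3 turn that product into NAD+. Sirt1, Sirt6 and Sirt7 are nuclear, with Sirt7 in the nucleolus, Sirt2 is mostly cytosolic, and Sirt3, Sirt4 and Sirt5 are mitochondrial. In heart muscle, which is dense in mitochondria, Sirt3 is the main deacetylase of the mitochondrial matrix. Transcription of Nampt is known to follow the circadian clock.

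Old hearts had less Nampt transcript than young hearts, by 17.9%, and none of the sirtuins and neither Nmnat gene passed the test. Thus 0 of the 10 genes were called higher in old hearts and 1 was called lower (edgeR quasi-likelihood test, adjusted p under 0.05 over all 12893 genes). In the same test 22% of all genes were called, 11.4% higher and 10.6% lower, so the count for these 10 genes was not above the background. Both counts were the same by DESeq2 and limma-voom, and 0 of the 10 were higher at an unadjusted edgeR p under 0.05. The old and young ranges did not overlap for 2 of the 10 genes, Nampt and Sirt4, against 39.9% of all genes tested. The median log2 fold change over all tested genes was -0.01.

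Totals ranged from 11592235 to 12125393 counts in old libraries and from 11295280 to 12514005 in young libraries. The 7 cardiomyocyte markers summed to 45320 to 46740 CPM (a count set against the library total after TMM scaling) in old hearts and 45540 to 46950 CPM in young hearts, with 1 called higher and 1 lower. Called higher and lower were 0 and 1 of the 3 atrial markers tested, 1 and 1 of 5 fibroblast, 0 and 1 of 5 endothelial, 2 and 0 of 5 smooth muscle and pericyte, 2 and 0 of 5 macrophage, 0 and 0 of 3 neutrophil, 1 and 0 of 4 lymphocyte, 1 and 0 of 4 epicardial, and 0 and 1 of 5 red cell markers. Over all genes tested 11.4% were called higher and 10.6% lower, and no marker list was tested as a set. Red cell markers ranged from 3191 to 6797 CPM in old hearts and from 2160 to 16070 CPM in young hearts. Skeletal muscle markers reached at most 0.518 CPM in old hearts but 16.95 CPM in the library young 3. Atrial markers summed to 55.0 to 117 CPM in old hearts and 339.5 to 413 CPM in young hearts, nearly all of it Nppa, which was the 1 called. Myl4 and Myl7, the other atrial markers tested, had positive log2 fold changes of 0.57 ± 0.32 and 0.26 ± 0.54. Neither was called, and both are named after their values were seen, so the fall of the sum is that of Nppa alone. In tissue RNA, fewer cells of a type and less RNA per cell cannot be told apart.

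Per unit of gene length, Nampt and Sirt2 were the most abundant of the 10 transcripts. The deposited FPKM values, which scale counts by gene length and library total, averaged 52.0 ± 2.84 for Sirt2 and 50.5 ± 2.29 for Nampt in old hearts (SD, n = 3), and these ranges overlapped. In young hearts Nampt averaged 65.0 ± 3.45 FPKM and Sirt2 54.4 ± 0.716 FPKM, without overlap. Sirt3 came next in both groups, at 31.7 ± 1.09 FPKM in old hearts and 32.6 ± 0.445 FPKM in young hearts. Nmnat1, Sirt5 and Nmnat3 followed between 8.04 and 10.9 FPKM in old hearts and between 8.59 and 10.3 FPKM in young hearts. Neighbours in that trio overlapped in old hearts. In young hearts the lowest Nmnat1, at 9.954 FPKM, lay just above the highest Sirt5, at 9.875 FPKM. That gap is small beside counting errors of about 5.8% for Nmnat1 and 5.01% for Sirt5 per young library. Sirt5 and Nmnat3 overlapped in young hearts. The lowest levels were those of Sirt7, Sirt1, Sirt4 and Sirt6. In old hearts Sirt7, Sirt1 and Sirt4 overlapped as neighbours and Sirt6 lay below them. In young hearts Sirt7 lay above Sirt4 and Sirt4 above Sirt1, and Sirt1 overlapped with Sirt6. The deposited values imply lengths of 1575 bases for Sirt3, 2684 for Sirt2 and 4547 for Nampt. All exon bases annotated for these genes in GENCODE M21 (GRCm38) come to 5973, 5035 and 5054. The order of the genes therefore depends on the lengths used.

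**Figure D1:**
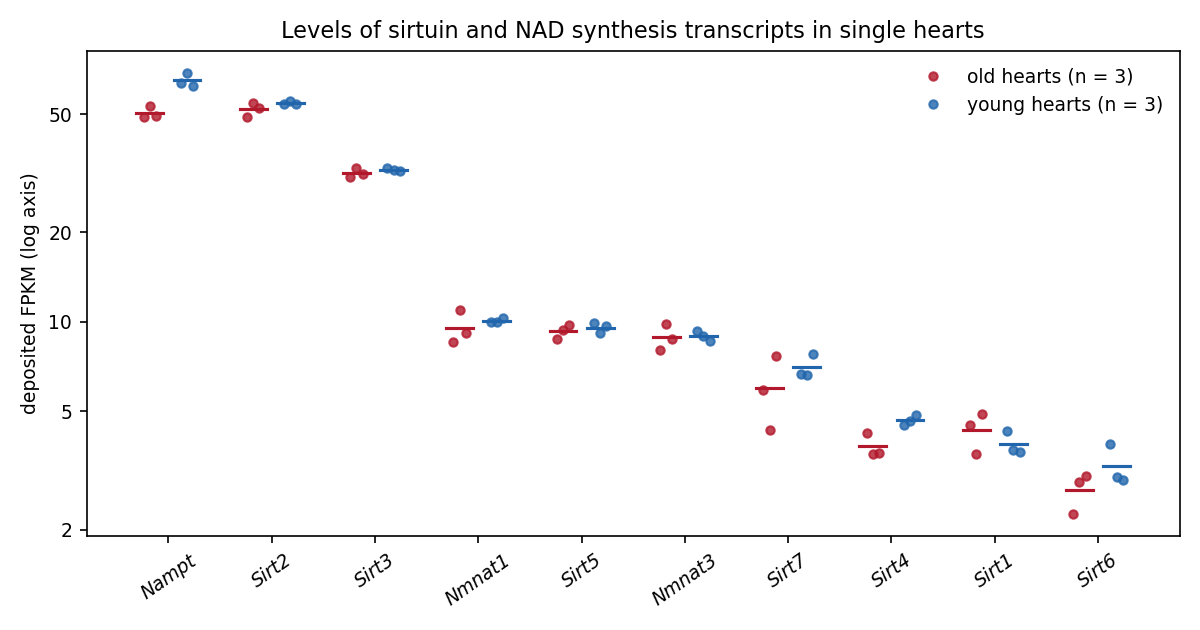
Deposited FPKM (log axis) of the 10 genes, with 1 point per heart, old hearts in red left of young hearts in blue, and a bar at the mean of 3. Nampt, at 49.0 to 53.1 FPKM in old hearts and 62.3 to 68.9 FPKM in young hearts, shows the clearest gap between the groups.

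Sirt2 and Sirt3 made up most of the deposited sirtuin FPKM, and these shares, too, depend on the gene lengths used. Of the FPKM sum over the 7 sirtuins, Sirt2 took 47.3% ± 1.54 in old and 47.2% ± 0.876 in young hearts, and Sirt3 took 28.9% ± 0.814 in old and 28.2% ± 0.219 in young hearts (SD, n = 3). Their joint share was 76.2% ± 2.199 in old and 75.4% ± 0.858 in young hearts, and the groups overlapped (exact 2-sided permutation p = 0.7). The 3 mitochondrial sirtuins held 40.8% ± 0.874 in old and 40.6% ± 0.285 in young hearts, also with overlap (exact permutation p = 0.7). None of the 7 single shares separated the groups, with exact permutation p between 0.2 and 0.9. With 3 against 3 hearts this test cannot go below 0.1, so it could not have passed the threshold for any share. The FPKM sum of the 7 sirtuins was 105, 111 and 113 in old hearts and 116, 115 and 115 in young hearts, without overlap (exact permutation p = 0.1). That sum is not TMM scaled, and the median log2 difference of all genes on FPKM was -0.07.

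Nampt was at 229, 253 and 227 CPM in old hearts 1 to 3, against 278, 311 and 274 CPM in young hearts 1 to 3. Every old heart lay below every young heart, and the gap between the highest old and the lowest young heart was smaller than the range within either group. The means were 236 ± 14.5 CPM in old and 288 ± 19.97 CPM in young hearts (SD, n = 3). The log2 fold change was -0.28 ± 0.09 (SE, 95% interval -0.47 to -0.09), and the call was close to the threshold (edgeR adjusted p = 0.0367). With 18780 counts over the 6 libraries, counting error was about 1.92% per old library and 1.68% per young library, against observed coefficients of variation of 6.15% and 6.94%.

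The call for Nampt did not survive the loss of most single libraries, although the direction did. It was kept without old 2 (edgeR adjusted p = 0.032). It was lost without old 1 (0.137), old 3 (0.078), young 1 (0.0942), young 2 (0.104) or young 3 (0.073), with log2 fold changes from -0.33 to -0.23 over these 6 leave-one-out fits. Among the other settings, all on 6 libraries, the log2 fold change ran from -0.36 with library size alone to -0.28 with RLE scaling, and Nampt was called in each.

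Set against its own pathway within each library, Nampt was lower in old hearts. The ratios use the same Nampt reads as above and are not separate evidence. The log2 ratio of Nampt to the sum of Nmnat1 and Nmnat3, on FPKM, was 1.56, 1.35 and 1.46 in old hearts against 1.72, 1.87 and 1.72 in young hearts. The log2 ratio of Nampt to the sum of the 7 sirtuins was -1.102, -1.07 and -1.19 in old hearts against -0.87, -0.74 and -0.89 in young hearts. Neither ratio depends on the scaling between libraries, and neither overlapped between the groups (exact 2-sided permutation p = 0.1 for each, the smallest possible). The differences were -0.31 and -0.29. These ratios show unequal change and do not say which transcript changed.

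The genes whose profile over the 6 libraries lay closest to that of Nampt were Wdr36, Smyd2 and Gcat, by the root mean square distance of centred log2 CPM among 11830 other genes. The distances were 0.0155, 0.0354 and 0.0365. Wdr36, a nucleolar protein of ribosome assembly, had a log2 fold change of -0.28 ± 0.09, and Smyd2, a lysine methyltransferase, had -0.29 ± 0.09. Both were called in the fit of 6 libraries (edgeR adjusted p = 0.0463 and 0.0316), and since they were chosen for a profile like that of Nampt, a like fold change was close to given. Gcat, an enzyme of glycine metabolism, was at -0.24 ± 0.10 and did not pass (edgeR adjusted p = 0.106). The calls for Wdr36 and Smyd2 were held in 0 and 1 of the 6 leave-one-out fits.

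Promoter windows from RefSeq (GRCm38.p6, 250 bases before to 50 after the annotated start) were found for all 10 genes. Those of Nampt, Sirt1 and Sirt4 are printed, because Nampt was called, Sirt4 was the other gene whose groups did not overlap, and Sirt1 was the only one of the 10 with an E-box, the CACGTG sequence that clock factors bind. Windows are given from 5′ to 3′ on the strand of the gene, at chr12:32820085-32820384 (plus) for Nampt, chr10:63338986-63339285 (minus) for Sirt1 and chr5:115484248-115484547 (minus) for Sirt4. Capitals mark matches on either strand to CACGTG, to TGACG (part of the cAMP response element), to GGGCGG (the SP1 box), to GAANNTTC (a heat shock element core) or to AAGGTCA (bound by estrogen-related receptors).
Nampt: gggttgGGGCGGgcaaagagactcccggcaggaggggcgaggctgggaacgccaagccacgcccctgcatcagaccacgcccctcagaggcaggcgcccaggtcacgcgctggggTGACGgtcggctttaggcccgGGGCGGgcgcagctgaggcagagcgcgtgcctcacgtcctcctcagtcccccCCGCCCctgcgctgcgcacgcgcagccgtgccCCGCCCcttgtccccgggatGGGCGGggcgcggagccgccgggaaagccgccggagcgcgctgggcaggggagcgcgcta
Sirt1: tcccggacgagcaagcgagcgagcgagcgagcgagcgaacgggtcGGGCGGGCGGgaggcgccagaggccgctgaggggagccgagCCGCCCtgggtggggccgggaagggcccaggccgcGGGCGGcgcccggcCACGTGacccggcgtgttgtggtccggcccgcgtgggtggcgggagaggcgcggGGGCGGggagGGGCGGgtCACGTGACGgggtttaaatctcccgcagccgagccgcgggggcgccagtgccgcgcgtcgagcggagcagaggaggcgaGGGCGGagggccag
Sirt4: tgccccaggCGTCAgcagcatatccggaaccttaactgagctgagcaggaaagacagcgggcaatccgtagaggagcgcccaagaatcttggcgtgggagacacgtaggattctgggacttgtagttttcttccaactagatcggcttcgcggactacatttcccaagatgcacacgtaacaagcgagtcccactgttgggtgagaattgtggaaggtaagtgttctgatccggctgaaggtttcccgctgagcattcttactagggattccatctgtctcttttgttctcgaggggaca

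Nampt has 5 SP1 boxes, which begin at -244, -114, -62, -30 and -10 from the start, and 1 TGACG at -135. Sirt1 has 7 SP1 boxes and 2 E-boxes at -115 and -43, and the second E-box shares bases with a TGACG at -39. Its SP1 boxes at -205 and -201 overlap each other. Positions are those of the first base of each match, and the base before the annotated start is -1. Sirt4 has 1 TGACG at -241 and no SP1 box. An E-box occurs in 7.15% of all 32851 windows, TGACG in 20.8%, the SP1 box in 35.7%, the heat shock core in 7.86% and the receptor sequence in 4.72%. The heat shock core was in none of the 13 windows of the 10 genes, and the receptor sequence was in those of Sirt5 and Nmnat3. The windows of Nampt and Sirt1 hold 76.3% and 79% G and C, that of Sirt4 52%, and the median window 52.7%. A match is only a match of letters. No E-box letters in this window of Nampt says nothing of sites elsewhere.

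Of the circadian clock genes, 9 of 19 were called higher and 4 lower in old hearts, against 11.4% and 10.6% of all genes. Their median log2 fold change was 0.44 against -0.01 over all genes. The clock output factor Dbp was at 119, 76.6 and 74.2 CPM in old hearts and 10.2, 10.9 and 11.7 CPM in young hearts, and Bhlhe40, a repressor of clock targets, rose by 1.89 ± 0.12 on the log2 scale (edgeR adjusted p = 2.09e-06). The repressor genes Nr1d1 and Per1 rose by 1.17 ± 0.10 and 1.97 ± 0.18. The activators that bind E-boxes went the other way. Arntl was at 6.73, 12.4 and 16.1 CPM in old hearts and 39.4, 36.0 and 35.5 CPM in young hearts, a log2 fold change of -1.65 ± 0.21. Clock was at -0.28 ± 0.08 (edgeR adjusted p = 0.0295), the same rounded size as Nampt, and was called in 2 of the 6 leave-one-out fits. Npas2, which can stand in for Clock, was at -1.60 ± 0.27. These 3 activators were chosen after seeing their values. The time of day at which the hearts were taken is not in the labels, and the part of the clock in the result for Nampt was not tested.

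Immediate early genes also differed, with 17 of 18 called higher and 0 lower (median log2 fold change 2.45), against 11.4% and 10.6% of all genes. Nr4a3, a nuclear receptor gene of this class, had 129, 179 and 90.0 CPM in old hearts and 3.12, 6.15 and 5.03 CPM in young hearts. Fosl2 and Ier5 rose by 1.87 ± 0.11 and 1.56 ± 0.09, and Fosb by 4.09 ± 0.25. Summed over the list the levels were 2039 to 4950 CPM in old and 486.6 to 803 CPM in young hearts. Nampt is also abundant in neutrophils and fat cells. The 5 neutrophil markers summed to 8.73 to 10.5 CPM in old hearts and 9.37 to 17.8 CPM in young hearts. The 5 fat cell markers summed to at most 0.531 CPM in old hearts and 1.14 CPM in young hearts, and Ucp1 had no count in any library. The part of these genes and cells in the result for Nampt was not tested.

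Nmnat1 and Nmnat3, which are nuclear and mitochondrial in place, did not pass the test. Nmnat1 was at 21.5, 28.0 and 22.8 CPM in old hearts and 23.5, 24.2 and 24.5 CPM in young hearts, so the young values lay inside the old range. Its log2 fold change was 0.00 ± 0.11 (95% interval -0.23 to 0.24, edgeR adjusted p = 0.982), and it was -0.08 with library size alone, a setting that shifts the median of all genes by that amount too. Nmnat3 was at 25.8, 32.2 and 27.6 CPM in old hearts and 27.9, 27.7 and 26.0 CPM in young hearts, with a log2 fold change of 0.07 ± 0.10 (95% interval -0.15 to 0.29, edgeR adjusted p = 0.638), and with library size alone and the same shift it was -0.01. For both genes old 2 was the highest library, and without it the log2 fold changes were -0.11 and -0.02. The log2 ratio of Nmnat1 to Nmnat3 was 0.11 ± 0.04 in old and 0.18 ± 0.08 in young hearts, with overlap (exact permutation p = 0.2).

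Sirt1, the nuclear deacetylase that acts on p53, FoxO factors and PGC-1 alpha, had the largest positive estimate of the 10 genes and did not pass the test. It was at 17.97, 14.7 and 19.3 CPM in old hearts and 16.1, 14.4 and 13.9 CPM in young hearts. The library old 2 lay within the young range. The log2 fold change was 0.23 ± 0.12 (95% interval -0.04 to 0.49, edgeR adjusted p = 0.2). Without old 2 it was 0.34 (edgeR adjusted p = 0.06), and over all settings it ran from 0.12 to 0.34 and was never called.

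Sirt6 and Sirt7 were the least precisely measured of the sirtuins. Sirt6, a nuclear deacylase of histones, was at 5.67, 7.43 and 7.54 CPM in old hearts and 9.13, 7.29 and 6.97 CPM in young hearts. The high young value came from young 1 and the low old value from old 1, and the log2 fold change of -0.18 ± 0.17 was -0.05 without either of them. Its 527 counts give a counting error of 11.3% per old library and 10.2% per young library, against observed coefficients of variation of 15.3% and 15%. Sirt7, which acts in the nucleolus, was at 11.3, 8.47 and 14.6 CPM in old hearts and 11.9, 12.3 and 14.2 CPM in young hearts. The old libraries spanned the whole young range, and the log2 fold change of -0.16 ± 0.17 moved between -0.36 without old 3 and 0.02 without old 2. Neither gene passed the test (edgeR adjusted p = 0.471 for Sirt6 and 0.531 for Sirt7).

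Sirt2, the mostly cytosolic tubulin deacetylase, had an interval close around 0. It was at 135, 154 and 142 CPM in old hearts and 139, 147 and 140.2 CPM in young hearts, and the old range enclosed the young one. Its log2 fold change was 0.02 ± 0.08, and its 95% interval of -0.16 to 0.19 is 0.892-fold to 1.14-fold on the linear scale (edgeR adjusted p = 0.915). With library size alone, which moves the median of all genes by -0.08, the estimate was -0.07.

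The mitochondrial sirtuins Sirt3 and Sirt5 did not pass the test, and their intervals were narrow. Sirt3, the main mitochondrial deacetylase, was at 49.6, 54.2 and 50.4 CPM in old hearts and 49.97, 50.6 and 49.1 CPM in young hearts. The log2 fold change was 0.04 ± 0.08 (95% interval -0.13 to 0.21, or 0.915-fold to 1.16-fold, edgeR adjusted p = 0.731). Sirt5, which removes succinyl and malonyl groups, was at 31.0, 34.0 and 34.2 CPM in old hearts and 32.8, 31.4 and 32.4 CPM in young hearts. Its log2 fold change was 0.04 ± 0.08 (95% interval -0.14 to 0.22, edgeR adjusted p = 0.764). With library size alone, and its common shift of -0.08, both estimates were -0.04.

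Sirt4, a mitochondrial lipoamidase and ADP-ribosyltransferase that restrains glutamate dehydrogenase, was lower in estimate and not called. It was at 11.9, 10.4 and 10.1 CPM in old hearts and 11.9, 12.7 and 12.9 CPM in young hearts. The groups did not overlap, although on this scale old 1 at 11.864 CPM stood less than 1 count under young 1 at 11.868 CPM. On the deposited FPKM values the gap was wider, with 4.21, 3.60 and 3.61 in old hearts and 4.503, 4.64 and 4.86 in young hearts. The log2 fold change was -0.21 ± 0.12 (95% interval -0.47 to 0.04, edgeR adjusted p = 0.218), and it was negative in all settings. The log2 ratio of Sirt4 to Sirt3 was -3.06 ± 0.17 in old and -2.80 ± 0.07 in young hearts, with overlap (exact permutation p = 0.2).

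**Figure D2:**
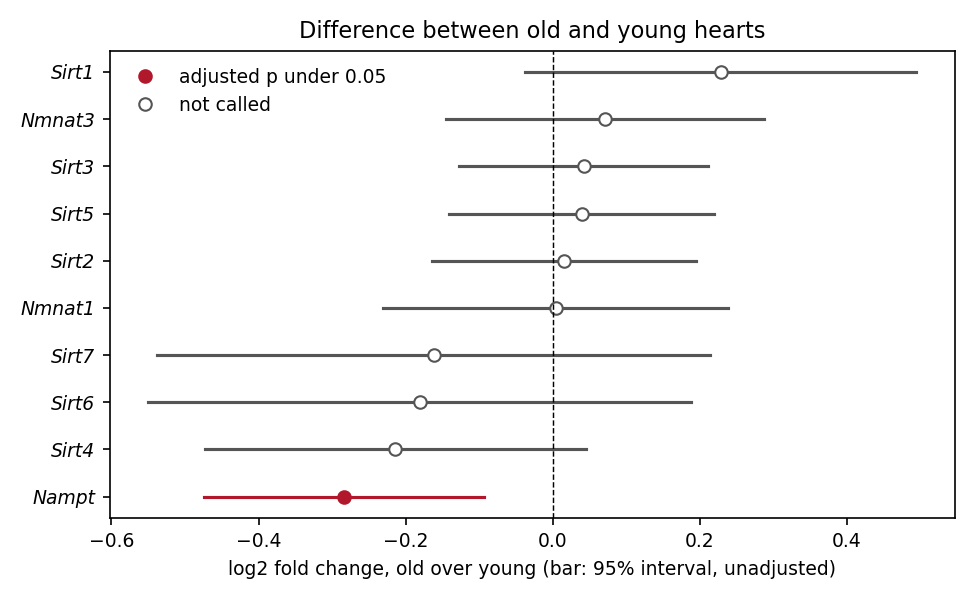
Log2 fold change of old over young hearts for the 10 genes, with unadjusted 95% intervals. The interval of Nampt, -0.47 to -0.09, is the only one that leaves out 0.

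**Figure D3:**
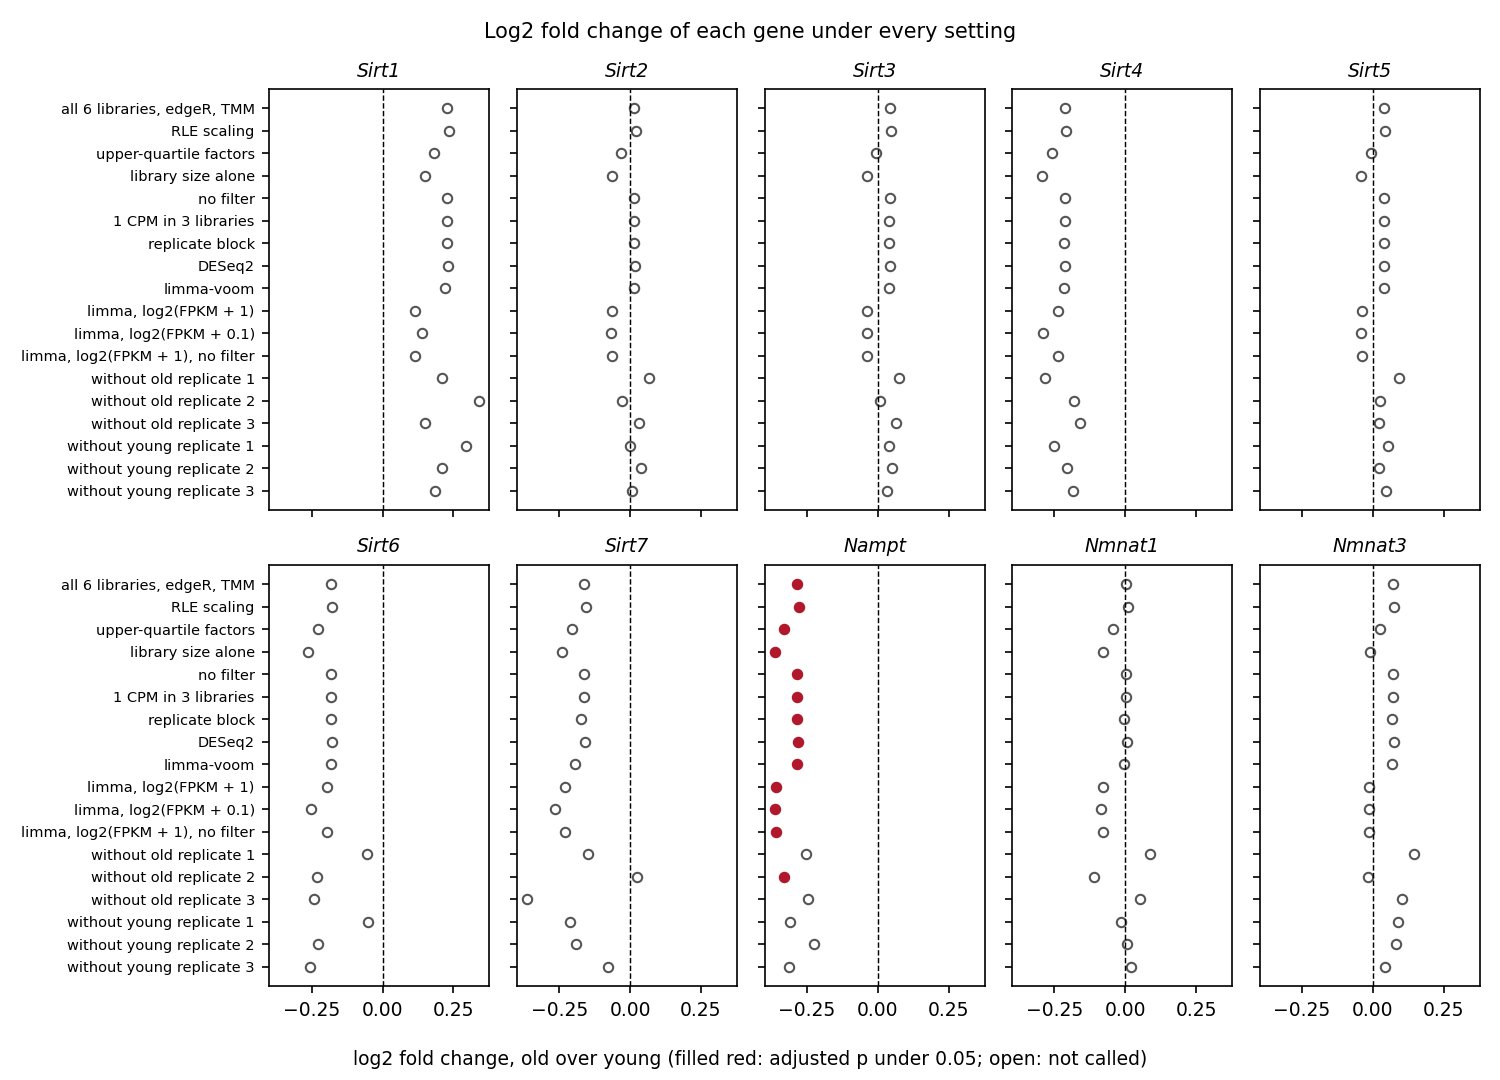
Log2 fold change of old over young hearts for each of the 10 genes under every setting, filled where the adjusted p was under 0.05. Nampt is negative throughout and loses its call in 5 of the 6 leave-one-out fits, while Sirt2, Sirt3, Sirt5, Sirt7, Nmnat1 and Nmnat3 lie on both sides of 0.

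Within the old group the 10 genes varied more between hearts than within the young group for 9 of 10, Nampt being the exception, against 59.3% of all genes tested. The coefficient of variation was 14.2% in old against 2.03% in young hearts for Nmnat1, and 26.6% in old against 9.31% in young hearts for Sirt7. It was 4.8% in old against 1.46% in young hearts for Sirt3. In young hearts the spread of 5 of the 10 genes lay under counting error alone, those of Sirt3, Sirt4, Sirt5, Nmnat1 and Nmnat3. For Nmnat1 that error was about 6.01% in old and 5.8% in young libraries. With 3 hearts in each group this difference in spread was not tested.

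Some of the sirtuin genes share exon bases with neighbours in the GENCODE M21 annotation of GRCm38, an older build than that of the deposited files. Sirt3 shares 342 bases with Psmd13 and 418 with Ric8a, both on the opposite strand, Sirt2 shares 42 with Nfkbib and Sirt1 shares 65 with Gm16145, also opposite. Sirt7 shares 124 bases with Mafg on its own strand. The library kit keeps strand, but the strand setting of the counting is not given in the sources used here, so reads in those bases cannot be assigned with certainty. Nampt, Nmnat1, Nmnat3, Sirt4, Sirt5 and Sirt6 share no exon bases with another gene in that annotation.

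None of the other enzymes of NAD synthesis was called, and most of them stayed under the filter on low counts. Of 14 listed, 6 passed the filter, and 0 were called higher and 0 lower (median log2 fold change -0.11), against 22% of all genes called. The count was 0 by DESeq2 and by limma-voom too, while 2 had an unadjusted edgeR p under 0.05. It was 1 higher without old 1, 1 lower without old 2 and 1 lower with library size alone. The de novo genes Tdo2, Ido2, Kynu, Haao, Qprt and Acmsd and the neuronal Nmnat2 each had at most 37 counts over the 6 libraries and stayed under the filter, as did Ido1 with 40. Afmid and Kmo, also of the de novo route and named after their values were seen, passed the filter. Afmid was at -0.39 ± 0.15 (edgeR adjusted p = 0.0926) and Kmo at -0.48 ± 0.32 (edgeR adjusted p = 0.314). Nmrk2, the nicotinamide riboside kinase of muscle, was at 7.08, 16.2 and 11.01 CPM in old hearts and 8.12, 8.43 and 5.26 CPM in young hearts. The groups overlapped through old 1, and the estimate of 0.66 ± 0.26 did not pass (edgeR adjusted p = 0.0961). Without old 1 it was 0.91 and passed (edgeR adjusted p = 0.0188). Naprt, which starts synthesis from nicotinic acid, was at 13.5, 17.3 and 14.6 CPM in old hearts and 13.2, 14.1 and 15.3 CPM in young hearts (log2 fold change 0.09 ± 0.12, edgeR adjusted p = 0.64).

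Of the enzymes that use NAD+ other than sirtuins, more were called lower than higher. Of 17 tested, 1 was called higher and 6 lower in old hearts, against 11.4% and 10.6% of all genes. The median log2 fold change was -0.17 against -0.01 over all genes, and the list was not tested as a set. Cd38, a major NAD+ glycohydrolase of cell surfaces, was at 18.1, 21.3 and 22.4 CPM in old hearts and 31.4, 27.6 and 31.0 CPM in young hearts. Each old heart lay below each young heart, and the log2 fold change was -0.54 ± 0.10 (edgeR adjusted p = 0.00371). Tnks, the tankyrase 1 gene, fell by 0.57 ± 0.11 on the log2 scale, Parp4, of the vault particle, by 0.40 ± 0.08 and Parp10, a mono-ADP-ribosyltransferase, by 0.46 ± 0.12. Cd38, Tnks and Parp4 were called whichever library was left out, and Parp10 in 4 of 6 fits. Parp3, of DNA break repair and named after its values were seen, was higher at 0.37 ± 0.10 and was called in 3 of 6 such fits. Parp1, the main DNA damage sensor of the family and likewise named after its values were seen, was at -0.09 ± 0.08 (edgeR adjusted p = 0.464). The count of 6 was 3 without young 3, and that of 1 was 0 without old 2, young 1 or young 3. The other scalings gave 6 to 8 lower and 1 higher.

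Cd38 is known from endothelial and immune cells. The 5 endothelial markers summed to 1214 to 1577 CPM in old hearts and 1505 to 1731 CPM in young hearts. Of them only Kdr was called lower, at -0.54 ± 0.17, though its groups overlapped and the call held in 1 of 6 leave-one-out fits. The other endothelial markers ran from -0.33 ± 0.12 (Cdh5) to -0.12 ± 0.09 (Pecam1) and were not called. Kdr, Cdh5 and Pecam1 are named here after their values were seen. The 5 macrophage markers summed to 293 to 334 CPM in old hearts and 292 to 305 CPM in young hearts, with 2 called higher and 0 lower. Over all genes tested 11.4% were called higher and 10.6% lower. The part of these cells in the result for Cd38 was not tested.

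**Figure D4:**
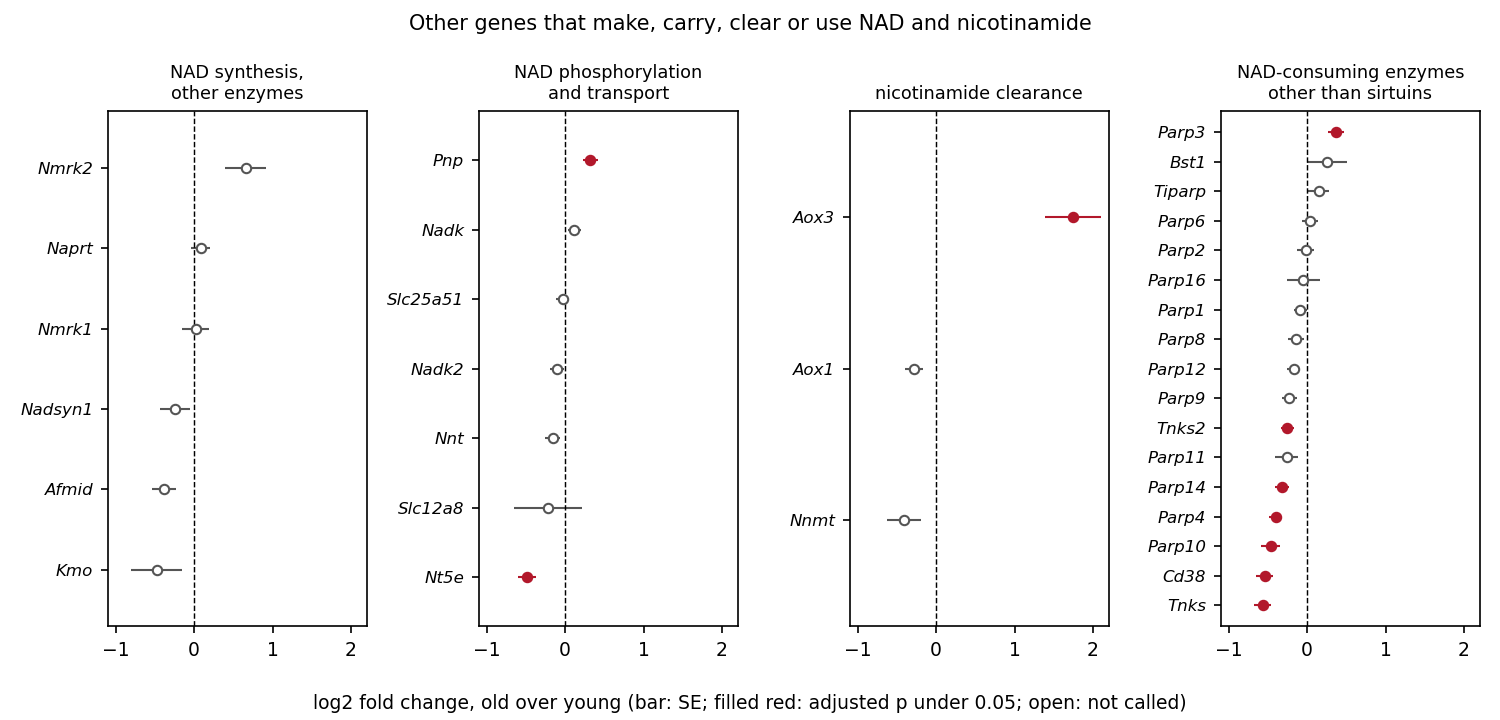
Log2 fold change of old over young hearts, with SE, for the tested genes of NAD synthesis, NAD phosphorylation and transport, nicotinamide clearance and NAD use other than the 10 genes, filled where the adjusted p was under 0.05. In the last of these lists 6 of 17 genes were called lower and 1 higher, against 10.6% and 11.4% of all genes tested.

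Of 7 genes that phosphorylate or carry NAD and its precursors, 1 was called higher and 1 lower (median log2 fold change -0.11). Over all genes 11.4% were called higher and 10.6% lower, so counts this small are not set apart from the background. Nt5e, the ectonucleotidase CD73, was at 13.4, 14.3 and 11.01 CPM in old hearts and 17.8, 19.1 and 17.3 CPM in young hearts (log2 fold change -0.48 ± 0.12, edgeR adjusted p = 0.0128), a call held whichever library was left out. Pnp, the purine nucleoside phosphorylase that can free nicotinamide from its riboside, was higher at 0.32 ± 0.09 (edgeR adjusted p = 0.0248), a call lost without old 2, young 1 or young 3, by DESeq2, with library size alone and on FPKM. Of 3 genes of nicotinamide clearance, 1 was called higher and 0 lower (median log2 fold change -0.28). That gene, the aldehyde oxidase gene Aox3, was at 2.21, 3.97 and 6.07 CPM in old hearts and 1.25, 1.23 and 1.16 CPM in young hearts (1.75 ± 0.35, edgeR adjusted p = 0.00521). At a mean of 0.378 FPKM it was under the minimum of the filtered FPKM fits, and the unfiltered one gave 0.40 on log2(FPKM + 1) (limma adjusted p = 0.0682). Nnmt and Aox1, the other genes of that list, had negative estimates and did not pass. They were at -0.41 ± 0.22 and -0.28 ± 0.11 (edgeR adjusted p = 0.197 and 0.103), and are named after their values were seen. Aldehyde oxidase genes are close relatives, so the split of reads between Aox1 and Aox3 is uncertain.

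Among regulators and nuclear targets of the sirtuins 2 of 17 were called higher and 4 lower (median log2 fold change -0.10). The shares over all genes were 11.4% higher and 10.6% lower, and the list was not tested as a set. Hif1a, the hypoxia factor, was at 66.9, 64.3 and 61.4 CPM in old hearts and 98.8, 96.1 and 94.0 CPM in young hearts, or -0.58 ± 0.08 on the log2 scale (edgeR adjusted p = 0.000352). Prkaa1, a catalytic subunit of AMP kinase, fell by 0.48 ± 0.10, and both were called whichever library was left out. Ccar2, which encodes the Sirt1 inhibitor DBC1, was at 25.8, 25.0 and 29.4 CPM in old hearts and 39.8, 31.3 and 32.0 CPM in young hearts (-0.37 ± 0.11, edgeR adjusted p = 0.0351). That call was held in 2 of 6 leave-one-out fits, and those for the corepressor gene Ctbp1, at 0.25 ± 0.08, and for Rela and Usp22 in 1 of 6 each. Rela, of NF-kappa B, at 0.26 ± 0.08, and Usp22, a deubiquitinase, at -0.24 ± 0.08, were chosen after seeing their values. Without old 1, young 1 or young 3 the counts were 0 higher and 2 lower, and without old 2, old 3 or young 2 they were 1 higher and 3 or 4 lower. With upper-quartile factors or library size alone they were 0 higher and 4 lower, and by DESeq2 1 higher and 2 lower.

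Of 17 tested proteins that mitochondrial sirtuins act on, 4 genes were called higher and 0 lower in old hearts (median log2 fold change 0.10). The shares over all genes were 11.4% and 10.6%, and this list was not tested as a set either. Sod2, the manganese superoxide dismutase that Sirt3 deacetylates, was at 723, 791 and 682 CPM in old hearts and 527, 563 and 549 CPM in young hearts (0.42 ± 0.08, edgeR adjusted p = 0.00487). Sod2 was called whichever library was left out. Acadvl, of very long chain fatty acid oxidation, was at 0.34 ± 0.08 and Dlat, of the pyruvate dehydrogenase complex, at 0.31 ± 0.08, called in 5 and 2 of the 6 fits. Without young 1 the count was 2, and without old 3, with upper-quartile factors or with library size alone there was 1 lower gene. Idh2, another Sirt3 substrate, named after its values were seen, was at -0.05 ± 0.08 (edgeR adjusted p = 0.667).

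The zinc-dependent histone deacetylases, which need no NAD+, had 0 of 11 called higher and 2 lower (median log2 fold change -0.06). Hdac7 was at 65.9, 60.8 and 70.7 CPM in old hearts and 86.2, 82.2 and 88.0 CPM in young hearts (-0.38 ± 0.08, edgeR adjusted p = 0.0084), and was called whichever library was left out. Hdac9, a class IIa enzyme of muscle, was at 20.2, 23.3 and 16.4 CPM in old hearts and 30.5, 25.8 and 27.5 CPM in young hearts (-0.49 ± 0.12, edgeR adjusted p = 0.0169), a call held in 4 of 6 fits. Without young 1 or young 3 the count of 2 was 1, and without old 3 there was 1 higher gene. Across the sirtuins the count was 0 of 7 in either direction by edgeR, by DESeq2 and by limma-voom, with 0 of 7 at an unadjusted edgeR p under 0.05. With 22% of all genes called, counts of 0 of 7 and 2 of 11 were not compared.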

How the data were processed

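Hearts of 3 old and 3 young mice were sequenced with a stranded mRNA kit, per the labels' protocols. The authors deposited whole-number counts per gene and FPKM values. The submitters' processing notes name GRCm39 and, among tools, DESeq, HTSeq, StringTie, Cufflinks, Bowtie2, HISAT2 and Trimmomatic. What each did, its version and the strand setting are not given. The 12 per-sample files equalled the tables of all samples, and counts over FPKM gave a constant length for each of 16964 genes with counts (relative deviation under 1e-06). Replicates differed by more than sampling noise (chi-square per degree of freedom 7.9 to 16.7).

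The deposited counts went into edgeR 4.0.16 under R 4.3.3 (filterByExpr, TMM, quasi-likelihood F test, Benjamini-Hochberg over 12893 genes), without covariates. SE and 95% intervals come from the F statistic. Before TMM scaling 1 count is worth 0.0799 to 0.0885 CPM, and differences below 1 count are not resolved. Single values were compared by exact permutation. Alternatives used limma 3.58.1, DESeq2 1.42.0, other scalings and filters, log2 FPKM with pseudocounts of 1 and 0.1 (with and without a minimum mean of 1 FPKM), the replicate number as a block, and each library left out. The genes and lists were chosen with earlier results of these data known. All 10 genes are named, then in each list the 4 called genes of smallest p (the 2 most abundant if none was called), and the 3 nearest profiles. Some genes that this rule takes are left out of the text. Other names are stated as chosen after their values were seen. RefSeq windows are on GRCm38.p6, an older build, and no other coordinates are given.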

Additional observations from a re-analysis of the deposited data

How the results depend on the processing

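Nampt kept its direction under every alternative tried, and Sirt1, Sirt4 and Sirt6 kept theirs. The number of these genes called lower was 1 in each fit of 6 libraries and ran from 0 to 1 with a library left out, and 0 were called higher in every fit. Of all genes 2835 were called, and leaving out a library gave 1552 (young 3) to 3041 (old 3), with 1557 for young 1. The share of calls that were higher in old hearts was 51.7%, but 40.2% by upper-quartile scaling, 32.7% by library size and 35.1% by FPKM (38.1% unfiltered). On FPKM no gene of phosphorylation and transport or, with the filter, of the regulators was called higher, no gene of clearance was (Aox3 is under that filter and so was not tested with it), 0 or 1 NAD consumer was, and without the filter 2 mitochondrial substrates were. With no filter on counts the regulators had 1 higher and 3 lower. 

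Uncalled estimates near 0 changed sign. Scaling moves all genes together, and the median log2 value of all genes moved by -0.05 under upper-quartile scaling, by -0.08 under library size and by -0.08 on FPKM, about as much as the values that follow. For the other changes of sign the cause was not tested. With upper-quartile factors Sirt2 was at -0.032, Sirt3 at -0.005, Sirt5 at -0.0073 and Nmnat1 at -0.043. With library size alone Sirt2 was at -0.065, Sirt3 at -0.039, Sirt5 at -0.041, Nmnat1 at -0.077 and Nmnat3 at -0.01. On log2(FPKM + 1), with and without a filter, the values were -0.065, -0.038, -0.038, -0.077 and -0.013 in the same order, and with a pseudocount of 0.1 they were -0.067, -0.039, -0.041, -0.085 and -0.015. Nmnat1 was at -0.0045 with limma-voom. With a library left out Sirt2 ranged from -0.029 to 0.065, Sirt7 from -0.364 to 0.023, Nmnat1 from -0.11 to 0.086, Nmnat3 from -0.018 to 0.147 and Naprt from -0.014 to 0.17.

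The titles give both groups the numbers 1 to 3. Deviations of same-numbered libraries correlated at 0.078, 0.078 and 0.007, so the numbers were not taken to pair the mice. With the replicate block 2734 genes were called, Nampt stayed called (-0.28, edgeR adjusted p = 0.0408), Nmnat1 was at -0.0037, and the regulator list had 0 higher and 3 lower. Not every library correlated best with its own number: old 3 did so with young 1.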
